A study of Mus musculus with 9 samples.

Results

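The 10 genes described here encode the EGF receptor family and the growth factors that bind it. They are the receptors Egfr, Erbb2 and Erbb3, the ligands Egf, Areg, Ereg, Hbegf, Btc and Tgfa, and the feedback inhibitor Errfi1. They were chosen by symbol for what they encode, by a rule that uses no measured value, although earlier results of these data were known when it was set. All 10 were found among the 46095 symbols of the count table, and all 10 were among the 14593 genes that passed the filter on low counts.

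RNA-seq was performed on intestinal epithelial cells (IECs) released with EDTA from the colons of mice treated with azoxymethane and dextran sodium sulphate (AOM/DSS). AOM is a carcinogen and DSS injures the colonic epithelium. AOM was injected at 10 mg/kg at 8 weeks of age, DSS was given at 2% in the drinking water for 5 days, and IECs were taken at 10 days of the treatment. In both groups Cre recombinase under the Villin promoter, which is active throughout the intestinal epithelium, deleted floxed alleles on a C57BL/6j background. Smad4Vil-KO mice (n = 4) carried the deletion of Smad4, which encodes the common mediator of TGF-β and BMP signals. Smad4Vil-KO;Setd2Vil-KO mice (n = 5) carried that deletion and also the deletion of Setd2, which encodes the enzyme that puts the H3K36me3 mark on histones. Both groups therefore carried the Smad4 deletion and both had received AOM/DSS. The comparison asked what the additional loss of Setd2 did to gene expression in Smad4-deleted epithelium.

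ErbB receptors are tyrosine kinases of the cell surface that act in pairs and pass signals to the RAS/ERK and PI3K/AKT cascades. EGFR binds EGF, amphiregulin (Areg), epiregulin (Ereg), heparin-binding EGF-like growth factor (Hbegf), betacellulin (Btc) and TGF-α (Tgfa), whereas ERBB2 has no known ligand of its own and ERBB3 binds neuregulins and has little kinase activity. The ligands are made as membrane proteins and are released by proteases such as ADAM17. In the gut this signal drives renewal of crypt cells and repair after injury. ERRFI1, also called MIG6, binds the active kinase and restrains it.

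Areg, Ereg and Btc lie close together on mouse chromosome 5 with Epgn, which encodes a further EGFR ligand. In the RefSeq annotation of GRCm38.p6 these 4 ligand genes span 375 kb from the start of Epgn to the end of Btc, and 46.0 kb separate Ereg (chr5:91074617-91093649, plus strand) from Areg (chr5:91139599-91148432, plus strand). The 250 bases before the annotated start are shown for Areg, the member of this cluster that differed between the genotypes and has a promoter window in the table used, and for Btc, its neighbour that did not pass the test. Capitals mark the motifs found in a search of both strands for 6 motifs, and the sequences are from RefSeq.
Areg (chr5:91139349-91139598, plus strand): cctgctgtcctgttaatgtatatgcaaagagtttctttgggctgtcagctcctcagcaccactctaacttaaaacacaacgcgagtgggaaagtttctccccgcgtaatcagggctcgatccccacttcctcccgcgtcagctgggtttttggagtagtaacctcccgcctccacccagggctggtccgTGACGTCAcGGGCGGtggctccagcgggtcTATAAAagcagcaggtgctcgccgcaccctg
Btc (chr5:91402995-91403244, minus strand): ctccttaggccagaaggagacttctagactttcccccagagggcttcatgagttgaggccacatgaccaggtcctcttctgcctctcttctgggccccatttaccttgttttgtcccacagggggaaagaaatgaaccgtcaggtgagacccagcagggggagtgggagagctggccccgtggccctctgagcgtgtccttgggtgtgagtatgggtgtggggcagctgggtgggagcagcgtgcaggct

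The Areg window held the palindromic cAMP response element TGACGTCA at 61 to 54 bases before the start, the Sp1 motif GGGCGG at 52 to 47 bases and the TATA box TATAAA at 31 to 26 bases. Of 32851 windows of the same length, 1.55% held TGACGTCA, 32.7% GGGCGG and 12.4% TATAAA. The other motifs searched were the AP-1 motif TGACTCA (4.46% of windows), the TEAD motif GGAATG (12.6%) and the CArG box (1.47%), none of which was in the Areg window. The Btc window held none of the 6 motifs. A window was found for 7 of the 10 members. Among them TGACGTCA was also in a window of Errfi1 (chr4:150854820-150855069), at 51 to 44 bases before the start, with TATAAA at 28 to 23 bases. A match of letters is no measurement of binding.

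The total count per library was 12487129 to 17120202. Levels are given as CPM, for which each library's total over the 14593 tested genes was first multiplied by its TMM factor from edgeR. On this scale 1 count equals 0.0594 to 0.0794. Setd2 had a mean of 113 ± 9.45 CPM in the 4 Smad4Vil-KO libraries and of 66.1 ± 14.7 CPM (SD) in the 5 others, which is -0.77 as a log2 fold change (edgeR adjusted p = 0.00756). Smad4, deleted in both groups, gave 0.13 on that scale (edgeR adjusted p = 0.819). The 3 Smad4Vil-KO;Setd2Vil-KO libraries of replicates 1, 2 and 5 had at least 3857 counts of Y-linked genes, against at most 28 in every other library. Genotype and Y-linked counts can therefore be told apart only through the 2 other libraries of the double deletion. Of 8 epithelial markers (Epcam, Cdh1, Krt8 and others), all were tested and none passed in either direction, and their summed level was 12240 to 14060 CPM and 11455 to 13485 CPM in the libraries of the 2 genotypes. Small intestinal enterocyte markers did move with the genotype: of 12, 10 were tested, 6 were higher and 0 lower in Smad4Vil-KO;Setd2Vil-KO libraries (607 to 690 CPM against 859 to 1914 CPM, with Apoa4 and Lct under the filter). Of the colon markers Prdx6 was lower, of the 7 goblet cell markers 1 was lower (Muc2), of 4 tested Paneth cell markers 1 was higher (Defa24), and of 3 tested squamous markers 2 were lower (Krt13 and Sprr1a). Leukocyte, mast cell, fibroblast and endothelial markers gave 0 calls among 24 tested. Their sums in the libraries of the 2 genotypes were 58.3 to 161 and 51.5 to 118 CPM (leukocyte), 76.5 to 99.5 and 44.5 to 79.6 CPM (mast cell and group 2 innate lymphocyte), 12.1 to 28.9 and 19.7 to 58.8 CPM (fibroblast and smooth muscle, 4 of 9 tested) and 9.09 to 9.53 and 6.76 to 11.9 CPM (endothelium). Most of the mast cell and group 2 innate lymphocyte sum was Kit, with means of 76.7 and 48.5 CPM (edgeR adjusted p = 0.0653). Of the 6 tested markers of that list 2 had log2 fold changes above 0. The part of these marker differences in the results below was not tested.

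The EGFR ligands Ereg and Areg rose with the additional loss of Setd2, and the other 8 members did not pass the test. At an edgeR adjusted p under 0.05, 2 of the 10 members were higher and 0 were lower, where 6.76% of all tested genes were higher and 6.54% lower. The log2 fold changes of the members lay between -0.28 (Hbegf) and 1.79 (Ereg), with a median of 0.14 beside 0.00 over all tested genes. The genotypes did not overlap for 1 member that was higher (Ereg) and 1 that was lower (Egfr), where 8.34% and 8.87% of all tested genes were separated in those directions. In bulk RNA, fewer cells of a type and less RNA per cell cannot be told apart.

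**Figure D1:**
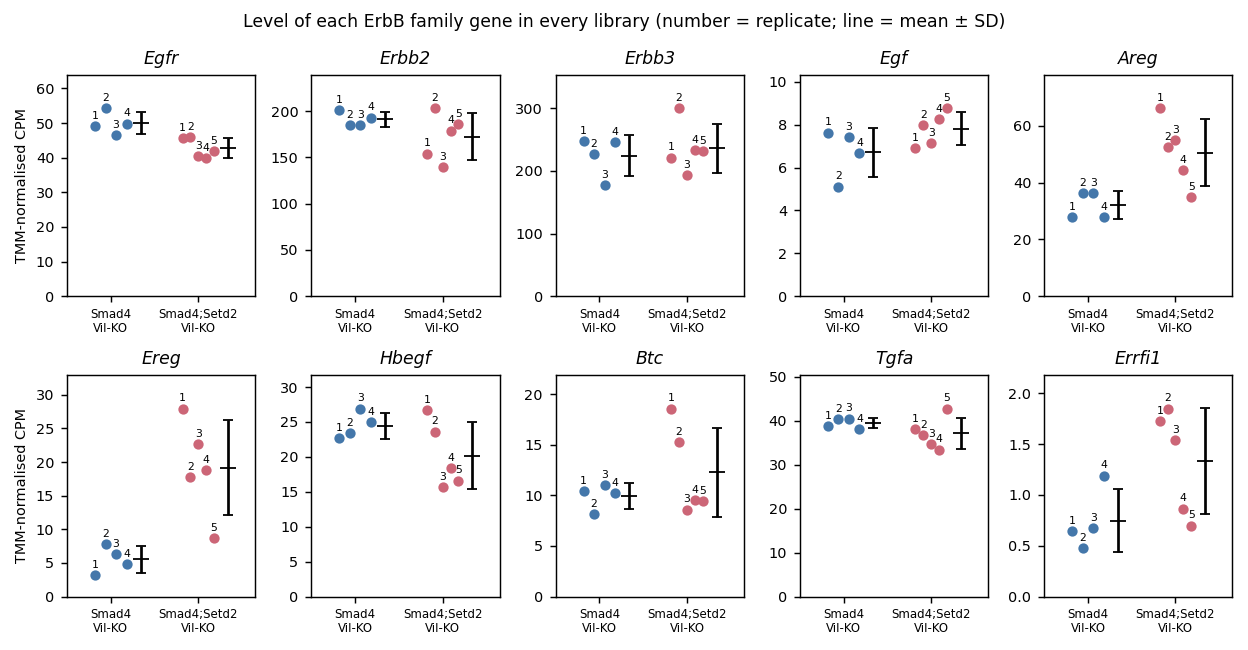
TMM-normalised CPM (vertical axes, from 0, scaled per gene) of the 10 genes in the 4 Smad4Vil-KO (blue) and 5 Smad4Vil-KO;Setd2Vil-KO libraries (red), with the replicate number at each point and the mean ± SD at its right. The red points of Ereg lie above every blue point, from 8.69 to 27.9 CPM against 3.14 to 7.84 CPM, and those of Egfr lie below every blue point.

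Ereg, a broad-acting ligand that binds EGFR and ERBB4, was at 3.14, 7.84, 6.26 and 4.84 CPM in Smad4Vil-KO replicates 1 to 4. In Smad4Vil-KO;Setd2Vil-KO replicates 1 to 5 the values were 27.9, 17.7, 22.7, 18.8 and 8.69 CPM. Every library of the double deletion was above every library of the single deletion, and replicate 5 was the lowest of them, close to the highest Smad4Vil-KO library. The means were 5.52 ± 2.01 CPM (SD, n = 4) and 19.2 ± 7.09 CPM (SD, n = 5), and Ereg rose by 1.79 on the log2 scale (standard error 0.34, edgeR adjusted p = 0.00768). These levels rested on 49 to 132 and 112 to 436 counts. The call held in each of 19 other fits, with log2 fold changes of 1.60 to 2.01 and edgeR, DESeq2 or limma-voom adjusted p values of 1.89e-06 to 0.0293. A single-gene exact permutation test of the 9 libraries (two-sided) gave p = 0.0159, where the smallest value it can give is 0.00794. Without adjustment over the members, the same exact permutation test gave p = 0.0159 for Egfr, 0.0318 for Areg and 0.0952 or more for the others. Of the fibroblast markers, Dcn, which encodes the matrix protein decorin, was lowest in the same library of each genotype as Ereg. It was at 3.02, 9.45, 10.3 and 4.13 CPM in Smad4Vil-KO libraries and 15.0, 20.2, 28.7, 16.4 and 5.66 CPM in Smad4Vil-KO;Setd2Vil-KO libraries (log2 fold change 1.35, standard error 0.46, edgeR adjusted p = 0.0766). The log2 fold changes of the other 3 tested markers were -0.31 (Col1a1), 0.45 (Col1a2) and 0.78 (Col3a1), so that 3 of the 4 tested markers were above 0, with a median of 0.61, and none passed the test. Of those under the filter, Pdgfra had a mean of 0.167 CPM against 1.19 CPM, with its lowest library in each genotype the same as that of Ereg, while Acta2 was lower in every library of the double deletion (mean 1.25 CPM against 0.279 CPM). These markers were singled out after their values were seen, and the part of fibroblast RNA in the level of Ereg was not tested.

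Areg, which encodes amphiregulin, a low-affinity EGFR ligand known from tissue repair, was at 27.8, 36.3, 36.4 and 27.9 CPM in Smad4Vil-KO replicates 1 to 4. In Smad4Vil-KO;Setd2Vil-KO replicates 1 to 5 it was at 66.2, 52.4, 54.9, 44.5 and 35.0 CPM. Replicates 1 to 4 of the double deletion lay above the Smad4Vil-KO range and replicate 5 lay within it, so the genotypes overlapped by 1 library. The means were 32.1 ± 4.91 CPM (SD, n = 4) and 50.6 ± 11.7 CPM (SD, n = 5), and the log2 fold change was 0.66 (standard error 0.17, edgeR adjusted p = 0.0317). The direction held in all 19 other fits, from 0.54 to 0.78, but the call did not. It was lost without any 1 of the Smad4Vil-KO replicates 1 to 4 or the Smad4Vil-KO;Setd2Vil-KO replicates 1, 2 and 3, with edgeR adjusted p values of 0.0514 to 0.0937, and with a term for the libraries with Y-linked counts (log2 fold change 0.63, edgeR adjusted p = 0.107).

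The other 4 ligands did not pass the test. Hbegf, an inducible ligand of EGFR and ERBB4 that acts in wound closure, was at 22.6, 23.4, 26.9 and 24.9 CPM in Smad4Vil-KO libraries and at 26.7, 23.6, 15.7, 18.4 and 16.6 CPM in Smad4Vil-KO;Setd2Vil-KO libraries. Replicates 1 and 2 of the double deletion were in or near the Smad4Vil-KO range and replicates 3, 4 and 5 were below it (log2 fold change -0.28, standard error 0.16, edgeR adjusted p = 0.268). Among the libraries without Y-linked counts, 4 against 2, the log2 fold change of Hbegf was -0.52 (edgeR adjusted p = 0.0201), and limma-voom with quality weights gave -0.42 (adjusted p = 0.038).

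Btc, whose product betacellulin binds EGFR and ERBB4, was at 10.5, 8.14, 11.1 and 10.2 CPM against 18.6, 15.3, 8.60, 9.52 and 9.46 CPM. Replicates 1 and 2 of the double deletion stood above all other libraries, and the other 3 were within the Smad4Vil-KO range (log2 fold change 0.30, standard error 0.24, edgeR adjusted p = 0.412). Both high libraries were among the 3 with Y-linked counts, and the sign turned with a term for those libraries (-0.14) and without them (-0.13).

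Tgfa, the TGF-α gene, is a ligand made by differentiated colonic epithelium. It was at 38.8, 40.3, 40.5 and 38.1 CPM in Smad4Vil-KO libraries and at 38.0, 36.6, 34.6, 33.4 and 42.7 CPM in Smad4Vil-KO;Setd2Vil-KO libraries. The genotypes overlapped, with both the highest and the lowest library in the double deletion (log2 fold change -0.09, standard error 0.09, edgeR adjusted p = 0.523). Egf, which gives the family its name, was low throughout, at 7.63, 5.11, 7.43 and 6.67 CPM against 6.92, 7.97, 7.13, 8.26 and 8.76 CPM. Its log2 fold change was 0.22 (standard error 0.16, edgeR adjusted p = 0.389). Exons of Egf overlap those of the antisense gene 6330410L21Rik by 500 bases, and whether the counting used strand is not given in the sources used here.

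Of the receptors, Egfr showed the most regular difference, a small one. It was at 49.0, 54.3, 46.6 and 49.9 CPM in Smad4Vil-KO replicates 1 to 4 against 45.6, 45.9, 40.6, 40.0 and 41.9 CPM with the double deletion, replicates 1 to 5. Every library of the double deletion was below every library of the single deletion, by as little as the step from 46.6 to 45.9 CPM. The log2 fold change of -0.22 (standard error 0.08) did not pass the test (unadjusted p = 0.0189, edgeR adjusted p = 0.0927). It passed in 2 of 19 other fits, with limma-voom (-0.26, adjusted p = 0.0338) and among the libraries without Y-linked counts (-0.31, edgeR adjusted p = 0.0403).

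Erbb2, the receptor that pairs with the other family members, was at 201, 185, 185 and 193 CPM against 154, 203, 139, 179 and 186 CPM. The Smad4Vil-KO libraries were close together and the Smad4Vil-KO;Setd2Vil-KO libraries spread around them, with replicates 1 and 3 lowest (log2 fold change -0.15, standard error 0.11, edgeR adjusted p = 0.367). Erbb3, the neuregulin receptor that needs a partner kinase, was at 247, 227, 178 and 245 CPM against 221, 299.7, 193, 234 and 231 CPM. Replicate 2 of the double deletion was the highest and replicate 3 of the single deletion the lowest, and the log2 fold change was 0.07 (standard error 0.14, edgeR adjusted p = 0.755). Its sign turned without either of these libraries (-0.03 and -0.02).

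Errfi1, the feedback inhibitor, was near the lower limit of what the depth could resolve. It was at 0.642, 0.475, 0.676 and 1.19 CPM in Smad4Vil-KO libraries and at 1.73, 1.85, 1.54, 0.865 and 0.698 CPM in Smad4Vil-KO;Setd2Vil-KO libraries, which is 8 to 15 and 9 to 27 counts. Replicates 1, 2 and 3 of the double deletion were above every Smad4Vil-KO library and replicates 4 and 5 were within their range. The log2 fold change was 0.86 (standard error 0.39, edgeR adjusted p = 0.165), so that a difference was not established at this depth.

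**Figure D2:**
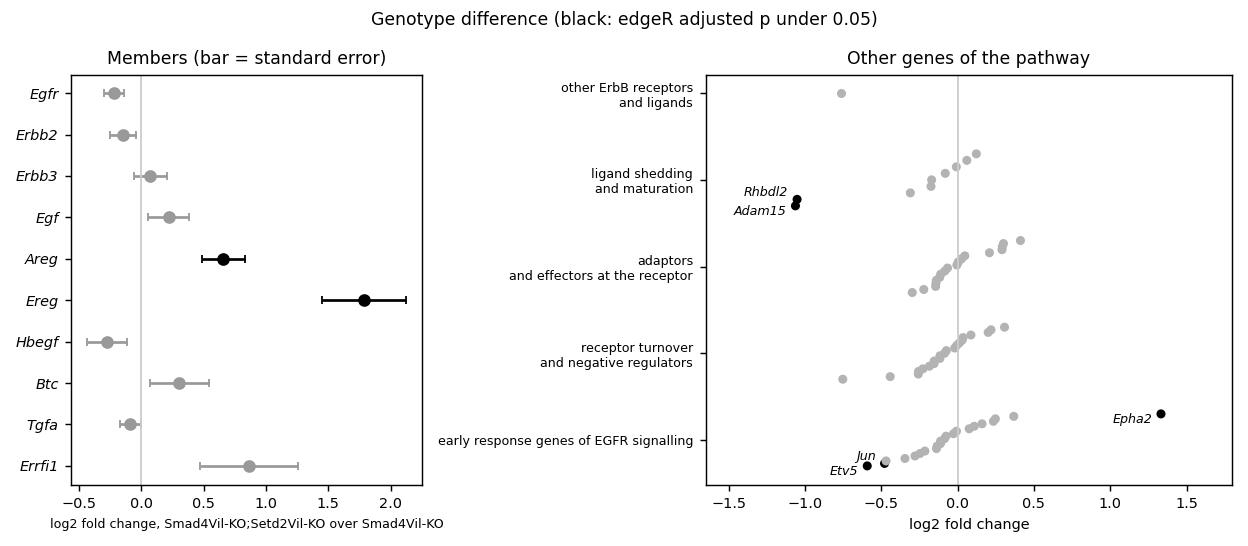
Log2 fold change between the genotypes (horizontal axes, Smad4Vil-KO;Setd2Vil-KO over Smad4Vil-KO) of the 10 members with the standard error (left) and of the 71 tested genes of 5 pathway lists (right, 1 point a gene), black where the edgeR adjusted p was under 0.05. Ereg (1.79) and Areg (0.66) are the members in black, and on the right Epha2 lies at 1.33 and Rhbdl2 and Adam15 near -1.05.

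Whether members differed from each other in their response was tested for 6 pairs on the log2 ratio of their levels, with a two-sided exact permutation test of the 9 libraries and adjustment over the 6 pairs. The smallest unadjusted p this design can give is 0.00794. The ratio of Areg to Ereg fell by 1.05 on the log2 scale, from 2.49 ± 0.34 (SD, n = 4) to 1.44 ± 0.31 (SD, n = 5), so that the increase of Ereg was the larger (exact permutation p = 0.0159, adjusted 0.0476). The ratio of Hbegf to Areg fell by 0.93 (exact permutation p = 0.00794, adjusted 0.0476). Among the receptors, the ratio of Erbb2 to Erbb3 fell by 0.23 (exact permutation p = 0.0238, adjusted 0.0476), while Egfr to Erbb3 gave -0.29 (p = 0.0794 by the exact permutation test, adjusted 0.0952) and Egfr to Erbb2 -0.06 (p = 0.675, adjusted 0.675, by the same exact test). The ratio of Errfi1 to Egfr rose by 0.76 (exact permutation p = 0.0318, adjusted 0.0476), with a pseudocount of 0.5 CPM. For a gene as low as Errfi1 this choice weighed on the value, which was 0.96 at 0.1 CPM, where the call was lost (adjusted exact permutation p = 0.0595), and 0.49 at 2 CPM (adjusted exact permutation p = 0.0357). With 1 library fewer the smallest unadjusted p of this exact test is 0.0179 (3 against 5 libraries) or 0.0286 (4 against 4), which passes the adjustment only where several of the 6 pairs reach it together. The adjusted p values without single libraries (0.0357 to 0.107 for these 4 pairs) are therefore no measure of stability, and the 4 ratios kept their direction in every one of these fits.

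Of the tested genes that flank the ligand cluster on chromosome 5, neither was called higher. Mthfd2l, a mitochondrial folate enzyme gene on the Epgn side, averaged 7.91 ± 0.80 CPM (SD, n = 4) and 9.86 ± 2.06 CPM (SD, n = 5), with a log2 fold change of 0.32 (standard error 0.18, edgeR adjusted p = 0.254). Parm1, on the Btc side, averaged 145 ± 12.3 CPM (SD, n = 4) and 116 ± 11.6 CPM (SD, n = 5), and fell by 0.32 on the log2 scale (standard error 0.09, edgeR adjusted p = 0.0438). The Parm1 call was lost in 12 of 19 other fits, with adjusted p values up to 0.133, among them those without any 1 of the Smad4Vil-KO replicates 1 to 4 or the Smad4Vil-KO;Setd2Vil-KO replicates 1 to 4. Within the cluster, Ereg and Areg passed the test and Btc did not. Epgn was under the filter, with 2 to 9 counts in Smad4Vil-KO libraries and 0 to 3 counts in Smad4Vil-KO;Setd2Vil-KO libraries.

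**Figure D3:**
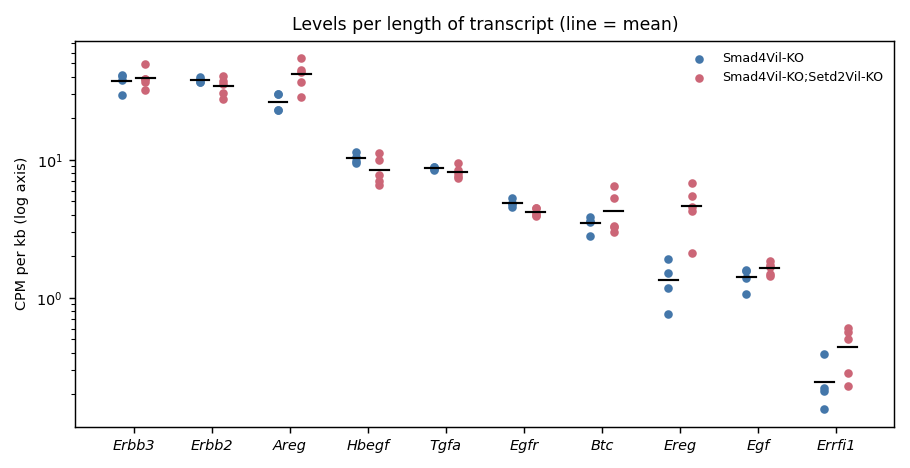
CPM per kb of the longest annotated coding transcript (vertical log axis) for the 10 genes, ordered by the mean over all 9 libraries, with 1 point a library and the mean of each genotype as a line (Smad4Vil-KO blue, Smad4Vil-KO;Setd2Vil-KO red). Areg is the ligand nearest to Erbb2 and Erbb3, and Ereg moves from a mean of 1.34 to 4.64 CPM per kb.

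Levels can be compared between genes only per length, and the scale here is CPM per kb of the longest coding transcript in the GENCODE annotation. In Smad4Vil-KO libraries the order was Erbb2 (38.1 ± 1.58, SD, n = 4), Erbb3 (37.3 ± 5.38) and Areg (26.4 ± 4.04), followed by Hbegf (10.3 ± 0.795), Tgfa (8.71 ± 0.254), Egfr (4.89 ± 0.313), Btc (3.47 ± 0.441), Egf (1.41 ± 0.241), Ereg (1.34 ± 0.486) and Errfi1 (0.245 ± 0.102). The ranges of the libraries overlapped between Erbb2 and Erbb3, between Erbb3 and Areg, where the lowest Erbb3 library (29.5) lay just under the highest of Areg (30.0), and between Egf and Ereg. The other neighbours in that order did not overlap. Areg was thus the most abundant ligand per length, above Egfr itself. In Smad4Vil-KO;Setd2Vil-KO libraries Areg came first (41.6 ± 9.62, SD, n = 5), overlapping Erbb3 (39.2 ± 6.53) and Erbb2 (34.4 ± 5.07). Ereg stood at 4.64 ± 1.72, in one overlapping group with Btc (4.27 ± 1.54) and Egfr (4.19 ± 0.275). With the union of all annotated exons as the length, Erbb3 came before Erbb2 and Ereg before Egf in Smad4Vil-KO libraries, Ereg came before Hbegf and Egfr before Btc in Smad4Vil-KO;Setd2Vil-KO libraries, and Tgfa came before Hbegf in both, while Areg and Errfi1 kept their places in both genotypes.

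The make-up of the ligand pool shifted with these levels. The 6 ligands summed to 47.0 to 57.2 CPM per kb in Smad4Vil-KO libraries and to 52.4 to 88.8 CPM per kb in Smad4Vil-KO;Setd2Vil-KO libraries. Areg took 51.0% ± 3.31 (SD, n = 4) of that sum and 60.1% ± 3.68 (SD, n = 5), with ranges that met at 54.9%. The share of Ereg was 1.62% to 3.49% in Smad4Vil-KO libraries and 4.01% to 7.91% in Smad4Vil-KO;Setd2Vil-KO libraries. Hbegf took 18.1% to 21.9% and 9.50% to 13.7%, so its share was lower in every library of the double deletion. Tgfa took 15.6% to 18.2% and 9.45% to 18.0%. These shares rest on the length of the longest coding transcript and would differ with the union of all annotated exons. With that union Hbegf averaged 5.06 and 4.18 CPM per kb in the 2 genotypes, in place of 10.3 and 8.50, while Areg was unchanged. The shares are a description without a test, and since they sum to a whole, one share can fall because another rose.

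**Figure D4:**
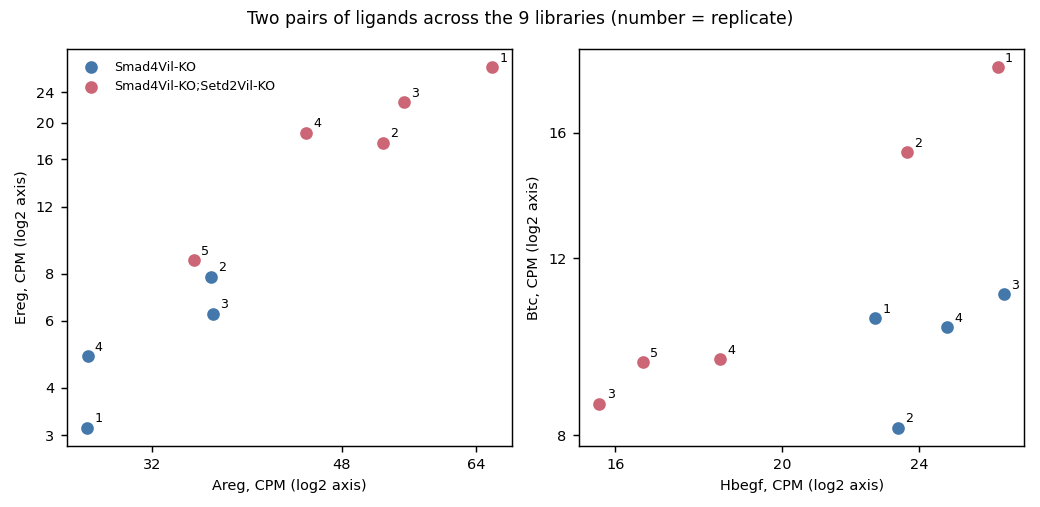
Ereg against Areg (left) and Btc against Hbegf (right) in CPM on log2 axes, 1 point a library with its replicate number (Smad4Vil-KO blue, Smad4Vil-KO;Setd2Vil-KO red). On the left the libraries follow 1 band through both genotypes, with Smad4Vil-KO;Setd2Vil-KO replicate 5 (35.0 and 8.69 CPM) beside Smad4Vil-KO replicate 2 (36.3 and 7.84 CPM), and on the right replicates 1 and 2 of the double deletion stand apart from replicates 3, 4 and 5.

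Some pairs of members varied together among libraries of the same genotype, and others in opposite directions. After the genotype means were taken off log2(CPM + 0.5), the highest of the 45 pairwise Pearson correlations over the 9 libraries were Hbegf with Btc (r = 0.94) and Areg with Ereg (r = 0.91), and leaving out any 1 library kept them at 0.89 to 0.98 and 0.82 to 0.95. Erbb2 with Erbb3 followed (r = 0.78), and the lowest were Egf with Ereg (r = -0.75) and Egf with Areg and with Egfr (r = -0.62 each). The median over all pairs was 0.21 and 31 of the 45 were above 0. The libraries share depth and composition, so these values describe 9 libraries and carry no test. Replicate 5 of the double deletion was the lowest of its group for Areg, Ereg and Errfi1 and the highest for Egf and Tgfa.

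By the same measure, each member was compared with 10908 tested genes whose mean was 5 CPM or more, over the 9 libraries. The 2 genes most like Areg were Recql4 and Snrpd1 (r = 0.97 each), and those most like Ereg were Cwf19l1 (r = 0.98) and Mark3 (r = 0.96). For Hbegf they were Tamm41 and Snhg4 (r = 0.99 each), for Btc Rnf220 and Alg1 (r = 0.99 each), for Tgfa Zfp330 (r = 0.97) and Terf2ip (r = 0.96), and for Egf Tmem246 (r = 0.94) and Sema4g (r = 0.91). The receptors were closest to Aida and Scaf11 (Egfr, r = 0.94 each), Spata2l and Slc6a8 (Erbb2, r = 0.98 and 0.94) and Mtmr6 (Erbb3, r = 0.97). Errfi1 was closest to LOC108169028 (r = 0.97) and Gm9243 (r = 0.95). With 9 libraries and so many candidates, values this high are a description only.

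Outside the members, 80 genes of the pathway were listed by role, 71 of which were tested, and 1 was higher and 4 were lower, where 6.76% of all tested genes were higher and 6.54% lower. A share of calls in these lists near those values is no result about the list. Their median log2 fold change was -0.08, beside 0.00 over all tested genes. Among the remaining receptors and ligands, only the neuregulin gene Nrg4 was tested, and it was at 0.513, 1.66, 1.11 and 1.19 CPM against 1.03, 0.285, 0.629, 0.551 and 0.775 CPM (log2 fold change -0.76, standard error 0.42, edgeR adjusted p = 0.241). Erbb4, Epgn, Nrg1, Nrg2 and Nrg3 were under the filter. The receptor gene Erbb4 had 0 to 4 counts in any library, Nrg2 also had 0 to 4, and Nrg3 had 1 count in all 9 libraries together. Nrg1, an ERBB3 ligand, had 0, 1, 3 and 1 counts in Smad4Vil-KO libraries and 22, 21, 7, 2 and 0 counts in Smad4Vil-KO;Setd2Vil-KO libraries. Its counts were spread unevenly over the double deletion, with replicates 1 and 2 high and replicate 5 at 0. The fibroblast marker Pdgfra, also under the filter and singled out after its values were seen, had 1, 2, 4 and 3 counts in Smad4Vil-KO libraries and 47, 23, 12, 5 and 1 counts in Smad4Vil-KO;Setd2Vil-KO libraries. Other markers of that list had another pattern: Acta2 had 9, 24, 27 and 17 counts against 6, 7, 4, 0 and 3, and Des had 8, 8, 9 and 4 counts against 10, 13, 5, 1 and 1. The part of fibroblast RNA in the counts of Nrg1 was not tested.

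Of the 11 genes of ligand shedding and maturation, 9 were tested, and 0 were higher and 2 lower (6.76% and 6.54% over all tested genes). Rhbdl2, a rhomboid protease that can cleave membrane-bound EGF, was at 80.3 to 102 CPM in Smad4Vil-KO libraries and 40.4 to 51.9 CPM in Smad4Vil-KO;Setd2Vil-KO libraries, without overlap (log2 fold change -1.05, standard error 0.10, edgeR adjusted p = 0.000166). Adam15, a membrane metalloprotease, was at 78.5 to 92.2 CPM and 26.3 to 59.8 CPM, also without overlap (log2 fold change -1.06, standard error 0.19, edgeR adjusted p = 0.00691). Both calls held in all 19 other fits. The remaining 7 tested genes of that list, which also held Adam17 and Adam10, did not pass.

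Of the 18 adaptors and effectors at the receptor, such as Grb2, Shc1 and Sos1, all were tested and none passed in either direction, with log2 fold changes of -0.30 to 0.41. Of the 22 genes of receptor turnover and negative regulation, such as Cbl, Lrig1 and the Sprouty genes, 21 were tested and none passed, with log2 fold changes of -0.75 to 0.31.

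Of the 23 early response genes, 22 were tested, and 1 was higher and 2 were lower, against the same 6.76% and 6.54% over all tested genes. Epha2, an ephrin receptor gene that ERK signalling can induce, was at 13.9, 16.5, 18.5 and 9.84 CPM against 64.1, 42.0, 21.7, 32.2 and 25.0 CPM, higher in every library of the double deletion (log2 fold change 1.33, standard error 0.31, edgeR adjusted p = 0.0196). Etv5, an ETS factor gene downstream of ERK, was at 38.4 to 42.2 CPM against 21.1 to 32.6 CPM, without overlap (log2 fold change -0.59, standard error 0.12, edgeR adjusted p = 0.0102). Jun, which encodes an AP-1 subunit, was at 91.6 to 109 CPM against 55.8 to 86.9 CPM (log2 fold change -0.48, standard error 0.12, edgeR adjusted p = 0.0246). The call of Epha2 was lost without Smad4Vil-KO replicate 1 or 4 and with a term for Y-linked counts (edgeR adjusted p = 0.0579, 0.0565 and 0.137). The call of Jun was lost in 6 of 19 other fits, including those without Smad4Vil-KO replicate 1, 3 or 4 or Smad4Vil-KO;Setd2Vil-KO replicate 4 (edgeR adjusted p = 0.0618 to 0.0701), and that of Etv5 held in all 19.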

How the data were processed

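RNA-seq of 9 mouse colon IEC libraries was analysed. The authors deposited raw whole-number counts for each symbol and library, neither normalized nor pooled. The submitters' processing notes name HISAT2 2.0 and mm10, while the counting program, annotation and strand setting are not given in the sources used here. Of the symbols, 27 had been turned into dates and stayed unnamed. Every column belonged to 1 of the 9 libraries, with genotypes taken from the labels.

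With edgeR 4.0.16 (R 4.3.3), genes were kept with filterByExpr by genotype, normalized with TMM and tested with the quasi-likelihood test without covariates, with Benjamini-Hochberg adjustment over 14593 genes and calls at an adjusted p under 0.05. A standard error is the size of the log2 fold change divided by the square root of F. DESeq2 1.42.0 and limma-voom (limma 3.58.1) were alternatives, beside other scalings and filters, each library left out, a replicate block, a term for Y-linked counts and the libraries without them. Counts of replicates differed beyond sampling noise (lowest chi-square 10.0 per gene for any pair within a genotype), so all 9 were counted as separate libraries. Repeat preparations from 1 mouse would not be seen this way. The labels do not say whether each library is a separate mouse. The methods speak of mice, and p-values measure only the spread between these libraries.

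Lengths are from GENCODE and promoters from RefSeq, both GRCm38, the assembly of mm10. No protein sequence was used here.

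The members and lists were chosen with earlier results of these data known. The genes named were all 10 members, Setd2, Smad4, the other ErbB receptors and ligands, pathway genes with an adjusted p under 0.05, the 2 genes most like each member, the tested neighbours of the ligand cluster, and markers where their list moved with the genotype. The pathway and marker genes named as examples of a list, without values, are outside this rule. Also outside it are Kit, Lyz1 and the fibroblast and smooth muscle markers given with values, which were chosen after their values were seen. Some genes that met this rule are not reported here.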

Additional observations from a re-analysis of the deposited data

Results flagged for a closer look

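Of 34 genotype groups checked for a sample far from the others (the members, the called pathway genes, Setd2 and Smad4), 1 was flagged, where chance flags about 1 in 20. Smad4, deleted in both genotypes, was at 92.7 CPM in Smad4Vil-KO replicate 1, against 54.3, 54.4 and 55.4 CPM in the other 3 libraries of that genotype. In Smad4Vil-KO;Setd2Vil-KO libraries it was at 60.1, 114, 38.2, 40.5 and 98.7 CPM. No value of a member was flagged.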

How the results depend on the processing

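Counts of members called higher were 1 in place of 2 with the Y-linked term, at an adjusted p under 0.01, and without any 1 of Smad4Vil-KO replicates 1 to 4 or Smad4Vil-KO;Setd2Vil-KO replicates 1 to 3 (range 1 to 2 without single libraries). Members called lower were 2 in place of 0 with limma-voom and in the libraries without Y-linked counts, 1 at an adjusted p under 0.1, and 0 to 0 without single libraries. Of pathway genes, 3 in place of 1 were higher with DESeq2, without Y-linked libraries and at 0.1, 2 with limma-voom, 0 with the Y-linked term and at 0.01, and 0 to 1 without single libraries (0 without Smad4Vil-KO replicate 1 or 4), while 2 in place of 4 were lower at 0.01 and 3 to 5 without single libraries. Over all genes, 653, 1553 and 293 were higher in place of 986 with the Y-linked term, at 0.1 and at 0.01, and 455 to 1380 without single libraries. For genes lower the values in place of 955 were 632, 1554 and 279, with 1525 by limma-voom and 1524 without Y-linked libraries, and 392 to 1316 without single libraries. Both counts moved by over 1.5 times without Smad4Vil-KO replicates 1 to 4 or Smad4Vil-KO;Setd2Vil-KO replicate 4 (lowest without Smad4Vil-KO replicate 3).

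Signs turned for 3 uncalled genes. Erbb3 was -0.073 with the Y-linked term and -0.068 in libraries without Y-linked counts, and -0.027 to 0.14 without single libraries (below 0 without Smad4Vil-KO replicate 3 or Smad4Vil-KO;Setd2Vil-KO replicate 2). Btc was -0.14 and -0.13 with the Y-linked term and without those libraries. Smad4 was -0.71 and -0.70 in these, -0.18 with limma-voom, -0.14 with the replicate block, and -0.11 to 0.37 without single libraries (below 0 without Smad4Vil-KO;Setd2Vil-KO replicate 2 or 5).

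The log ratio of Erbb2 to Erbb3 was -0.21 without Y-linked libraries, -0.26 with the replicate block and -0.27 to -0.14 without single libraries. In the same order, Areg to Ereg was -1.25, -1.18 and -1.18 to -0.89, Hbegf to Areg -1.14, -0.99 and -1.01 to -0.81, and Errfi1 to Egfr 0.76, 0.89 and 0.61 to 0.92, with 0.96 at a pseudocount of 0.1 CPM, where its call was lost, and 0.49 at 2 CPM. Without Y-linked libraries the smallest p this test can give is 0.0667 and with the block 0.125, so no call was possible there.

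Same-numbered replicates of the genotypes did not deviate together (r = -0.15 to 0.05, beside -0.26 to 0.35 for any numbers). With 4 such pairs this check cannot exclude a pairing of small effect, and the main test used none. With the replicate block, Jun and Parm1 lost their calls (adjusted p = 0.0564 and 0.0599), and Ereg was 2.01 (adjusted p = 0.00985). Of 398 values of single genes under other settings, 352 kept direction and side of the threshold. The cause of each change was not tested. Errfi1 could not be tested with at least 10 counts in every library.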
